A study of Mus musculus with 10 samples.

Results

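The 41 genes described here encode clotting factors, fibrinolytic proteins, complement proteins and serpins, most of them plasma proteins made by hepatocytes. They were followed in livers of mice given an overdose of acetaminophen and in livers of vehicle-injected controls. The genes are a hand-picked list, matched by the gene name printed on each probe of the array, and all 41 were found among the 23974 genes tested. By role they were 3 fibrinogen chains, 7 vitamin K dependent proteins, 6 other clotting factors, 2 fibrinolysis proteins and 6 serpins. The rest were 8 proteins of complement initiation, 4 of the C3, alternative pathway and regulator group and 5 of the terminal complement pathway.

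The animals were female C57BL/6 mice aged 8 weeks that had all been fasted for 24 h. The treated mice then received acetaminophen (350 mg/kg, into the peritoneal cavity) in phosphate-buffered saline, and the control mice the saline alone. Livers were taken 3, 8, 24, 48 or 72 h later. Each of 10 arrays (2 at each time) carried RNA of 1 treated mouse in the Cy5 channel and of 1 control mouse in the Cy3 channel. The labels number the mice but do not say how they were housed or handled. The 2 arrays of each time also differed in slide and in scan day. The p-values thus measure a spread between arrays that holds mouse, slide and scan day together. Whole liver was used, with no sorting of cells. Fasting was common to both groups and no fed group was analysed here. The dyes were never exchanged. At any single time a probe's own dye effect and the treatment cannot be told apart, whereas a constant dye effect cancels in a difference between times.

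Clotting ends when thrombin, the active form of the F2 product, cuts fibrinogen into fibrin. The vitamin K dependent factors need a carboxylation that lets them bind calcium and membranes, and protein C, protein S and protein Z act as brakes or cofactors of brakes. Complement is a second plasma cascade, started by antibody or by lectins bound to sugars, amplified at C3 and completed by the C5 to C9 proteins that pierce membranes. Fibrinogen is a positive acute phase protein, whose gene transcription in hepatocytes responds to interleukin-6 through STAT3 and C/EBP factors. Acetaminophen is turned into a reactive metabolite in hepatocytes around the central vein, and low clotting factor activity in plasma is a known sign of the injury.

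With loess normalization within each array, most members fell at 24 and 48 h and none was called at 72 h, whereas with median centring 17 of the 41 fell at 24 h and 9 at 48 h. The fibrinogen genes were not among those that fell. With limma's moderated test and Benjamini-Hochberg adjustment over all genes (adjusted p below 0.05), 0 members rose and 2 fell at 3 h, while 1 rose and 7 fell at 8 h. At 24 h, 0 rose and 29 fell, at 48 h, 0 rose and 33 fell, and at 72 h, 0 rose and 0 fell. Of all genes tested, 3.37% rose and 4.08% fell at 3 h, 5.35% rose and 7.58% fell at 8 h, 3.8% rose and 7.11% fell at 24 h, 18% rose and 13.5% fell at 48 h, and 0% rose and 0% fell at 72 h. The median log2 ratio of treated over control livers across the members was 0.03, -0.17, -1.13, -1.56 and -0.12 in time order, whereas that of all genes tested lay between -0.01 and 0.00 at every time. At least 2-fold falls were called for 22 members at 24 h and for 32 at 48 h. Of the 23974 genes tested, 704 and 925 had such falls. In whole liver, fewer hepatocytes and less RNA per hepatocyte cannot be told apart.

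**Figure D1:**
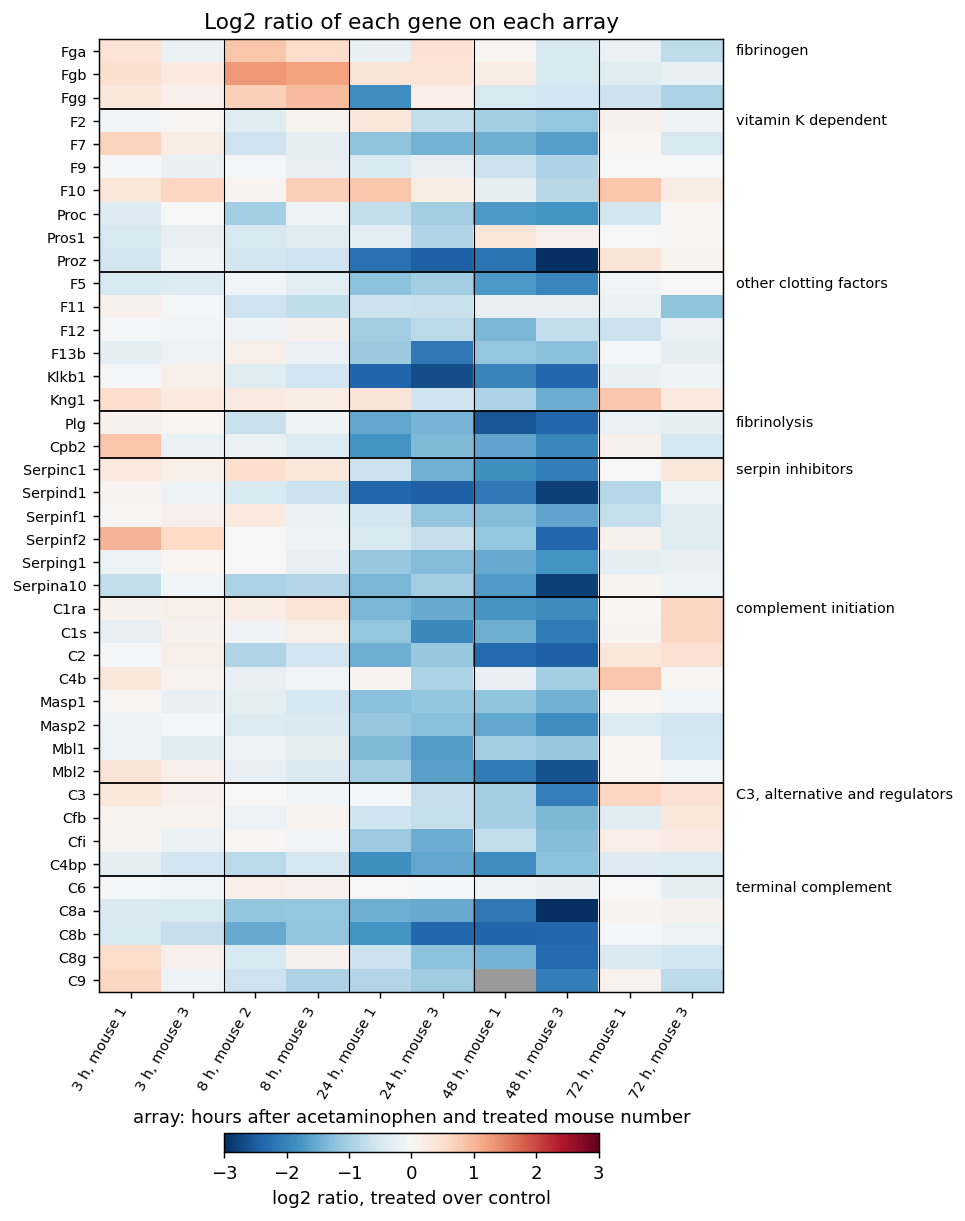
Log2 ratio of treated over control liver for the 41 genes (rows, grouped by role) on each of the 10 arrays (columns, by hours after acetaminophen and treated mouse number), with blue for lower and red for higher in treated liver and grey for a spot left out. The columns of 24 and 48 h are mostly blue, less so in rows such as Fga, Fgb, F10, Pros1 and C6. Those of 72 h are mostly pale.

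Over all arrays, the members' probes were well above background in both channels, with a single exception: the C9 spot on 1 of the 48 h arrays was an outlier spot and was left out, so its 48 h value rests on 1 array. The 2 arrays of a time correlated across the members (genes, which are not independent replicates) at 0.59, 0.83, 0.73, 0.86 and 0.44 in time order. The share of probes above background in the treated channel ran from 44.5% to 75.9% over the arrays, and was lower on the first scan day than on the second for every time point. No spot was saturated.

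Among 9 genes that mark hepatocytes, 2 rose and 0 fell at 8 h, 0 rose and 6 fell at 24 h, and 0 rose and 7 fell at 48 h. Their summed level was 234600 to 321900 intensity units in treated livers at 24 h, against 484300 to 550700 in control livers, and 252300 to 315300 at 48 h, against 460200 to 474700. The 2 that rose at 8 h were the albumin gene Alb, by 0.99 (0.92 and 1.06 on the arrays, adjusted p = 0.0137), and Hnf4a, by 0.51. Albumin, the most abundant plasma protein, did not pass at 24 or 48 h, with log2 ratios of -0.43 and -0.09. Of 6 neutrophil genes, 3 rose at 24 h and 5 at 48 h, led by S100a9 at 3.04 and 3.66. Their summed level was 26370 to 44270 in treated livers at 24 h, against 16000 to 19870 in control livers, and 22540 to 31060 at 48 h, against 24930 to 29940. Csf3r, the brightest of them at a mean log2 intensity of 14.1, stood at -0.45 at 48 h and was not called. Of 7 genes that mark Kupffer cells, 1 rose at 48 h, Marco at 3.76, and the summed level was 12610 to 17200 in treated livers, against 3807 to 3841 in control livers. The others were not called, with Cd5l at 1.035, Vsig4 at 0.98 and Clec4f, Timd4, Adgre1 and Cd163 at 0.02 to 0.12. Of 7 genes of recruited monocytes and macrophages, 4 rose at 48 h, Trem2 by 1.43, Gpnmb by 0.87, Lyz2 by 0.60 and Cd68 by 0.32. Their summed level was 4506 to 4957 in treated livers at 48 h, against 4996 to 6432 in control livers. Itgam, the brightest of them at a mean log2 intensity of 11.3, stood at -0.56 at 48 h and was not called. All of these sums add intensities, so the brightest genes weigh most. The part of these marker levels in the falls of the members was not tested.

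The 3 fibrinogen genes, which lie next to each other on chromosome 3, encode the chains of the clottable protein. Their promoters carry letters that are known binding motifs of the acute phase factors named above. RefSeq sequences (GRCm38.p6) of the 150 bases before each start are shown here because Fgb was the member called as higher and its neighbours Fga and Fgg held the next ranks at 8 h. Capitals mark matches on either strand to TTGCNNAA (C/EBP) and CTGGGA (the core of the interleukin-6 response element), and none of the matches overlapped. The windows are chr3:83026003-83026152 (plus strand) for Fga, chr3:83049864-83050013 (minus strand) for Fgb and chr3:83007574-83007723 (plus strand) for Fgg.
Fga: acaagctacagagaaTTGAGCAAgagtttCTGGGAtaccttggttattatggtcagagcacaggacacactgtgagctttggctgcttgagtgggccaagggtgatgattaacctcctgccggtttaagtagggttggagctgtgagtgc
Fgb: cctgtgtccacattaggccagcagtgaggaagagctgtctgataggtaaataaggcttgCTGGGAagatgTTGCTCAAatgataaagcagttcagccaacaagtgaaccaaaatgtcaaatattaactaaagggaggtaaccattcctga
Fgg: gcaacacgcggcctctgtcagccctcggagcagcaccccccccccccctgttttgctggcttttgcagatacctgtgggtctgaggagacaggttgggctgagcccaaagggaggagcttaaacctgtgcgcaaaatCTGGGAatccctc
Fga and Fgb each held both motifs in the window, and Fgg held CTGGGA alone. In the window from 250 bases before to 50 after each of 32851 RefSeq starts, TTGCNNAA was found in 10.8%, CTGGGA in 31.8% and the STAT motif TTCNNNGAA in 8.3%. Among the 30 members with such a sequence the counts were 10, 16 and 7, and those with the STAT motif included Fga and Fgb. The motifs were not particular to the fibrinogen genes. Klkb1, the deepest fall at 24 h, held TTGCNNAA and CTGGGA, and C1ra, which also fell, held both of these and the STAT motif. A match is a description of letters and says nothing of binding.

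Fgb, which encodes the beta chain, had log2 ratios of 1.29 and 1.20 on the 8 h arrays, and its ratios were 0.47 and 0.28 at 3 h, 0.39 and 0.40 at 24 h, 0.22 and -0.45 at 48 h, and -0.35 and -0.21 at 72 h. With loess, both 8 h arrays were higher than every other array. The fitted value at 8 h was 1.25 ± 0.14 (SE, n = 2 arrays, adjusted p = 0.00199), which puts the treated livers at 237% of the control livers. By the brightest probes Fgb was the only member called as higher at any time. Fitted among probes, dimmer probes of Kng1 and C8g at 8 h and of Fga at 24 h were also called as higher. With median centring in place of loess the Fgb arrays gave 1.08 and -0.06 at 8 h and 0.79 and 0.76 at 48 h. The 8 h value of Fgb was then 0.51 and was not called (adjusted p = 0.515). Without 8 h replicate 2 it was no longer called (adjusted p = 0.0511). The ratio was lower at 24 h than at 8 h by a difference of -0.85 (adjusted p = 0.047), while the difference of 8 h over 3 h, 0.87, did not pass (adjusted p = 0.097). In the single channels, the scaled log2 intensity of Fgb was 16.88 and 17.07 in treated livers at 8 h, against 15.59 and 15.87 in control livers.

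Fga, the alpha chain gene, had log2 ratios of 0.82 and 0.54 at 8 h, both positive, but the fitted 0.68 ± 0.22 did not pass (adjusted p = 0.094). At 3 h the arrays gave 0.41 and -0.20, at 24 h -0.23 and 0.44, at 48 h 0.03 and -0.45, and at 72 h -0.21 and -0.77. The signs of the 2 arrays differed at 3, 24 and 48 h. A dimmer probe of Fga gave 0.87 and 1.18 at 24 h, where the brightest probe gave -0.23 and 0.44. Fitted among probes, it rose at 24 h by 1.02 ± 0.22 (adjusted p = 0.0242).

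Fgg, the gamma chain gene, had 0.72 and 0.95 at 8 h (0.84 ± 0.38, adjusted p = 0.22). Its arrays were 0.32 and 0.16 at 3 h, -1.86 and 0.21 at 24 h, -0.48 and -0.58 at 48 h, and -0.64 and -0.95 at 72 h. The 24 h arrays disagreed by more than those of any other time of this gene, and no time was called. By rank among the 41 members, Fgb, Fgg and Fga held ranks 1, 2 and 3 at 8 h, counted from the highest ratio. At 48 h their ranks were 2, 6 and 4, and at 72 h they were 31, 41 and 38.

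**Figure D2:**
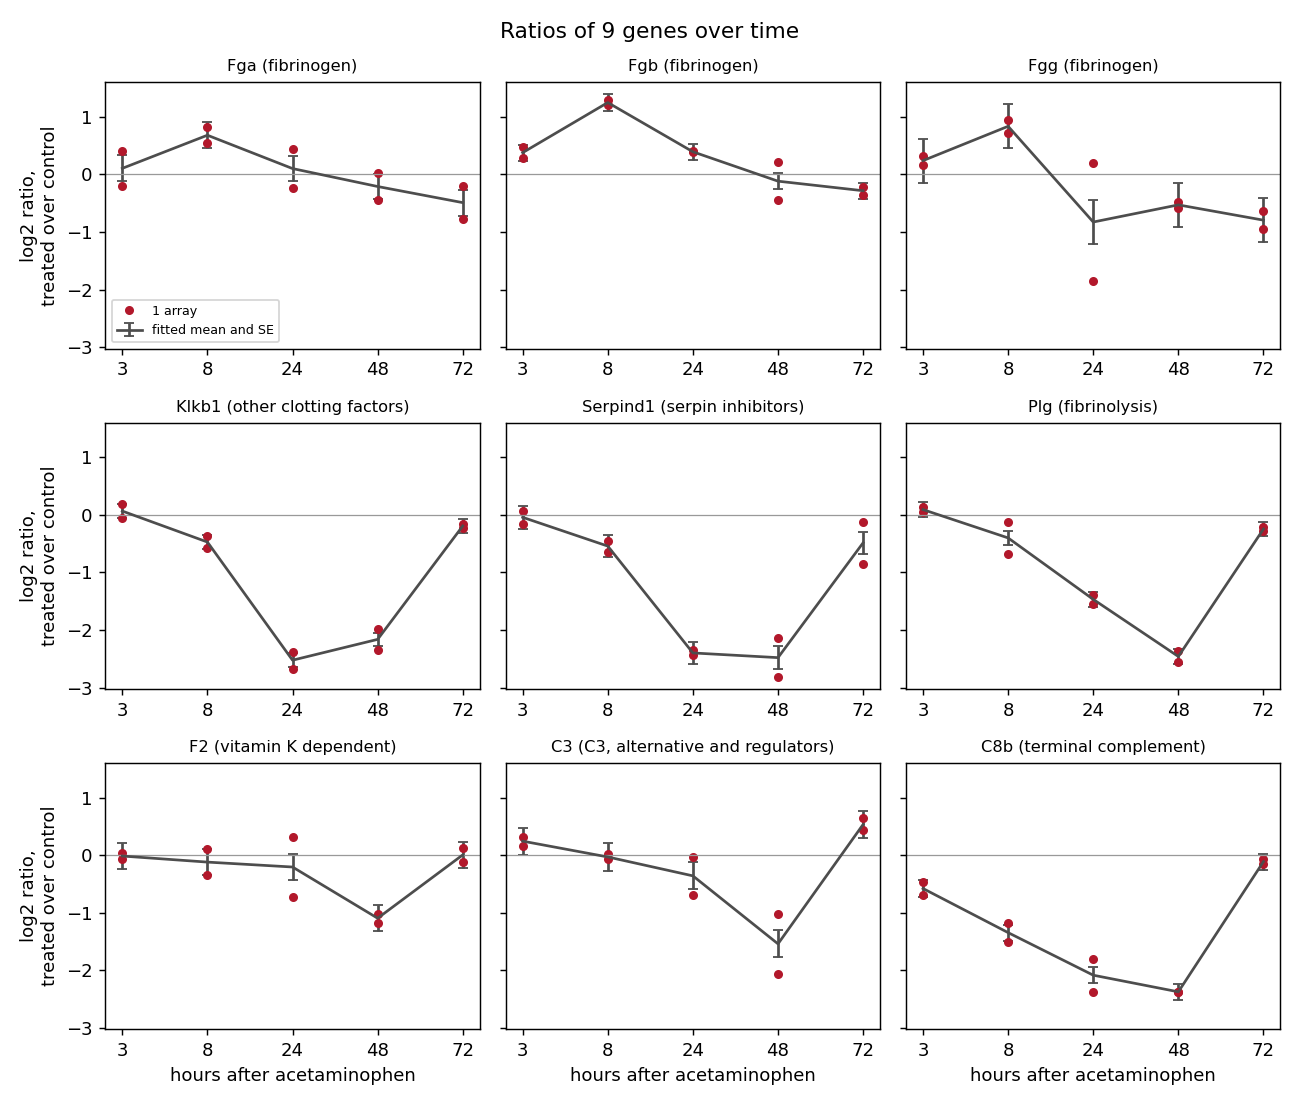
Log2 ratio of treated over control liver against hours after acetaminophen for 9 genes, with 1 point for each array and a line for the fitted mean with its SE. Fgb peaks at 8 h at 1.25, whereas Klkb1, Serpind1, Plg and C8b are lowest at 24 or 48 h and higher again at 72 h, where Serpind1 stands at -0.49.

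The direction of the early values depended on how each array was normalized. With median centring in place of loess, the median of all genes was at -0.24 at 3 h and -0.18 at 8 h, and the median of the members at -1.11 and -0.89. All 41 members were then below 0 at 3 h and 39 at 8 h, where loess gave 20 and 30. Most of the array also lay below 0 with median centring, with 15940 of the 23974 genes tested at 3 h and 16119 at 8 h. At 8 h, Fga then stood at -0.05 and Fgg at 0.09. At 24 and 48 h the median of the members was -1.83 and -0.97 with median centring, with the lower counts of falls given above. At 48 h the 3 fibrinogen genes were above 0 with median centring, at 0.77 for Fgb, 0.37 for Fga and 0.31 for Fgg, against -0.12, -0.21 and -0.53 with loess, and none of these was called.

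The 7 vitamin K dependent genes had median log2 ratios of -0.12, -0.42, -0.62, -1.09 and 0.01 in time order. Of these, 0 passed at 3 and 8 h, 4 fell at 24 h, 5 fell at 48 h, and none rose. Proz, for protein Z, a cofactor of the inhibitor of factor X, had the deepest fall, with -2.24 and -2.45 at 24 h and -2.20 and -3.55 at 48 h. Its fitted values were -2.35 ± 0.27 (adjusted p = 0.0012) and -2.87 ± 0.27 (adjusted p = 0.00028), or 19.6% and 13.6% of control, and at 72 h it stood at 0.25. A dimmer probe of Proz gave fitted values of -1.09 at 24 h and -1.22 at 48 h.

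F7, which with tissue factor starts clotting, fell to a log2 ratio of -1.30 at 24 h and to -1.56 at 48 h. Proc, for the anticoagulant protein C, fell to -0.89 at 24 h and to -1.76 at 48 h, and F9 fell to -0.78 at 48 h alone. Prothrombin, F2, fell to -1.09 ± 0.22 at 48 h (adjusted p = 0.0075), with -1.02 and -1.17 on the arrays. At 24 h its arrays gave 0.32 and -0.73. Pros1, the protein S cofactor of protein C, fell to -0.62 at 24 h, was at 0.26 at 48 h (not called), and the difference of 48 h over 24 h was 0.88 (adjusted p = 0.026). It was the only member whose ratio was higher at 48 h than at 24 h by that test.

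F10, for factor X, which joins both arms of the cascade, depends on its probe. The 2 probes lie at chr8:13056119-13056178 and chr8:13055774-13055833 (mm9, plus strand), and 30 bases of each 60-base oligo are shown, in this order, because their values disagreed. Capitals mark the 20-base stretch of the brightest probe found in the largest number of RefSeq promoter windows, which is 24.
F10, brightest probe: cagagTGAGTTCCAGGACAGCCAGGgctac
F10, other probe: ggtcacgaccttcctcaagtggattgacag
Stretches of 20 bases from the brightest probe were found, on either strand, in probes of other genes (13 probes) and in 57 promoter windows, whereas none was shared by the other probe. No other member's probe shared any such stretch. The brightest probe gave 0.82 and 0.23 at 24 h and -0.30 and -0.84 at 48 h, and was not called at any time. The other probe gave -1.86 and -1.81 at 24 h and -2.12 and -2.63 at 48 h. Fitted among probes, it fell to -1.84 ± 0.16 (adjusted p = 0.000395) and to -2.38 ± 0.16 (adjusted p = 8.31e-05). With that probe in place of the brightest, the counts of members that fell were 30 at 24 h and 34 at 48 h.

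**Figure D3:**
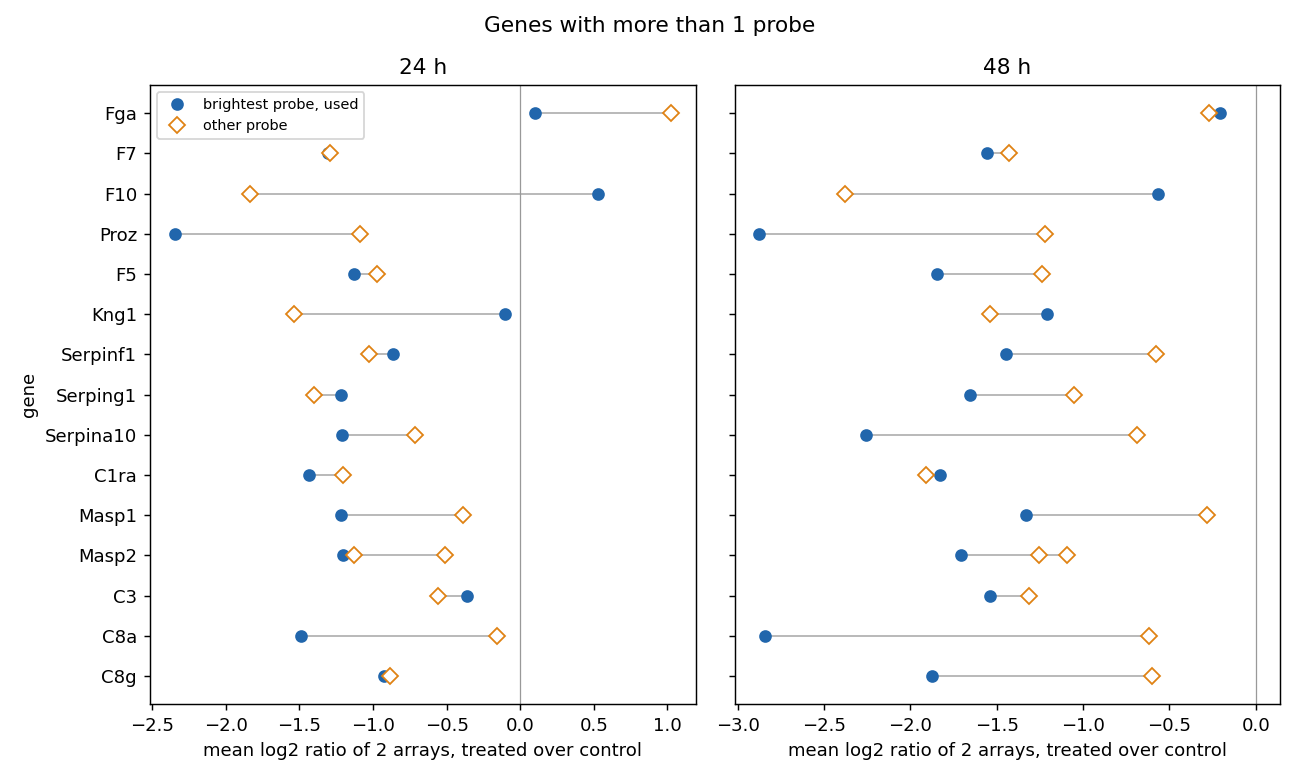
Mean log2 ratio of treated over control liver (2 arrays) at 24 h and 48 h for the 15 genes with more than 1 probe, with filled circles for the brightest probe and open diamonds for the others. F10 lies on opposite sides of 0 at 24 h, and the probes of Kng1, Proz and C8a are far apart, while those of F7 nearly coincide.

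The 6 other clotting factors had medians of -0.02, -0.11, -1.03, -1.21 and -0.17 in time order. Of them, 1 fell at 3 h and 1 at 8 h, whereas 4 fell at 24 h and 5 at 48 h. F5, the cofactor of factor X in making thrombin, was the one called at 3 h, with -0.47 and -0.40 (-0.44 ± 0.10, adjusted p = 0.0348). It then fell to -1.13 at 24 h and to -1.85 at 48 h. The 3 h call of F5 ended without either 3 h array.

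Klkb1 encodes prekallikrein, which activates factor XII and releases bradykinin. Its arrays gave -0.37 and -0.58 at 8 h, -2.38 and -2.67 at 24 h, -1.98 and -2.34 at 48 h, and -0.23 and -0.16 at 72 h. With loess, every array of 24 and 48 h was lower than every array of the other times. The fitted values were -0.47 ± 0.12 at 8 h (adjusted p = 0.037), -2.52 ± 0.12 at 24 h (adjusted p = 5.3e-05), the deepest fall of a member at that time, and -2.16 ± 0.12 at 48 h (adjusted p = 4.9e-05). Treated livers thus stood at 17.4% of control livers at 24 h. With median centring the 48 h arrays, at -1.59 and -1.63, were not lower than 3 h replicate 1, at -1.80.

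F11, which lies next to Klkb1 on chromosome 8, was not called at any time, with -0.65 at 24 h (adjusted p = 0.082) and -0.23 at 48 h. F12, whose product starts contact activation, fell to -0.93 at 24 h and to -1.06 at 48 h, and F13b, the carrier subunit of the fibrin-crosslinking factor, to -1.63 and to -1.22. Kng1, the kininogen gene, fell to -1.21 at 48 h, and at 24 h its arrays gave 0.38 and -0.59. Its dimmer probe, which the files tie to another Kng1 transcript, gave -1.51 and -1.57 at 24 h and -1.41 and -1.67 at 48 h. Fitted among probes, that probe rose at 8 h by 0.41 ± 0.10 (adjusted p = 0.0356).

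Both fibrinolysis genes fell at 24 and 48 h and neither passed at 3, 8 or 72 h. Plg, for plasminogen, the zymogen that dissolves fibrin, had -1.55 and -1.39 at 24 h and -2.56 and -2.36 at 48 h. Its fitted fall at 48 h was -2.46 ± 0.13 (adjusted p = 3.6e-05), or 18.2% of control. That fall was deeper than at 24 h by a difference of -0.99 (adjusted p = 0.0145). The call of this difference was lost with median centring (528 of all genes called) and with the slide as a replicate block (0 of all genes called). Cpb2, whose product protects fibrin from plasmin, had -1.78 and -1.34 at 24 h (-1.56 ± 0.26, adjusted p = 0.0065) and -1.77 at 48 h.

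Among the 6 serpins, 5 fell at 24 h and 6 at 48 h, with medians of -1.12 and -1.85, against 0.03 at 3 h, -0.10 at 8 h and -0.19 at 72 h. Serpind1, for heparin cofactor II, an inhibitor of thrombin, fell most at both times, with -2.35 and -2.44 at 24 h and -2.15 and -2.81 at 48 h. The fitted values were -2.40 ± 0.19 (adjusted p = 0.00033) and -2.48 ± 0.19 (adjusted p = 0.00015). Serpinc1, antithrombin, fell to -1.03 and to -1.95, with a spread between its 24 h arrays of -0.63 to -1.44. Serpina10, the inhibitor of factor X that works with protein Z, fell to -1.21 and to -2.26. Its dimmer probe stood at -0.72 at 24 h, which did not pass, and at -0.69 at 48 h, which did. Serping1, which inhibits C1 and kallikrein, fell to -1.22 and to -1.65, and Serpinf1 to -0.86 and to -1.44. Serpinf2, for the main inhibitor of plasmin, passed at 48 h alone (-1.75 ± 0.26, adjusted p = 0.0018), and was the highest member at 3 h, at 0.81 (adjusted p = 0.101).

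**Figure D4:**
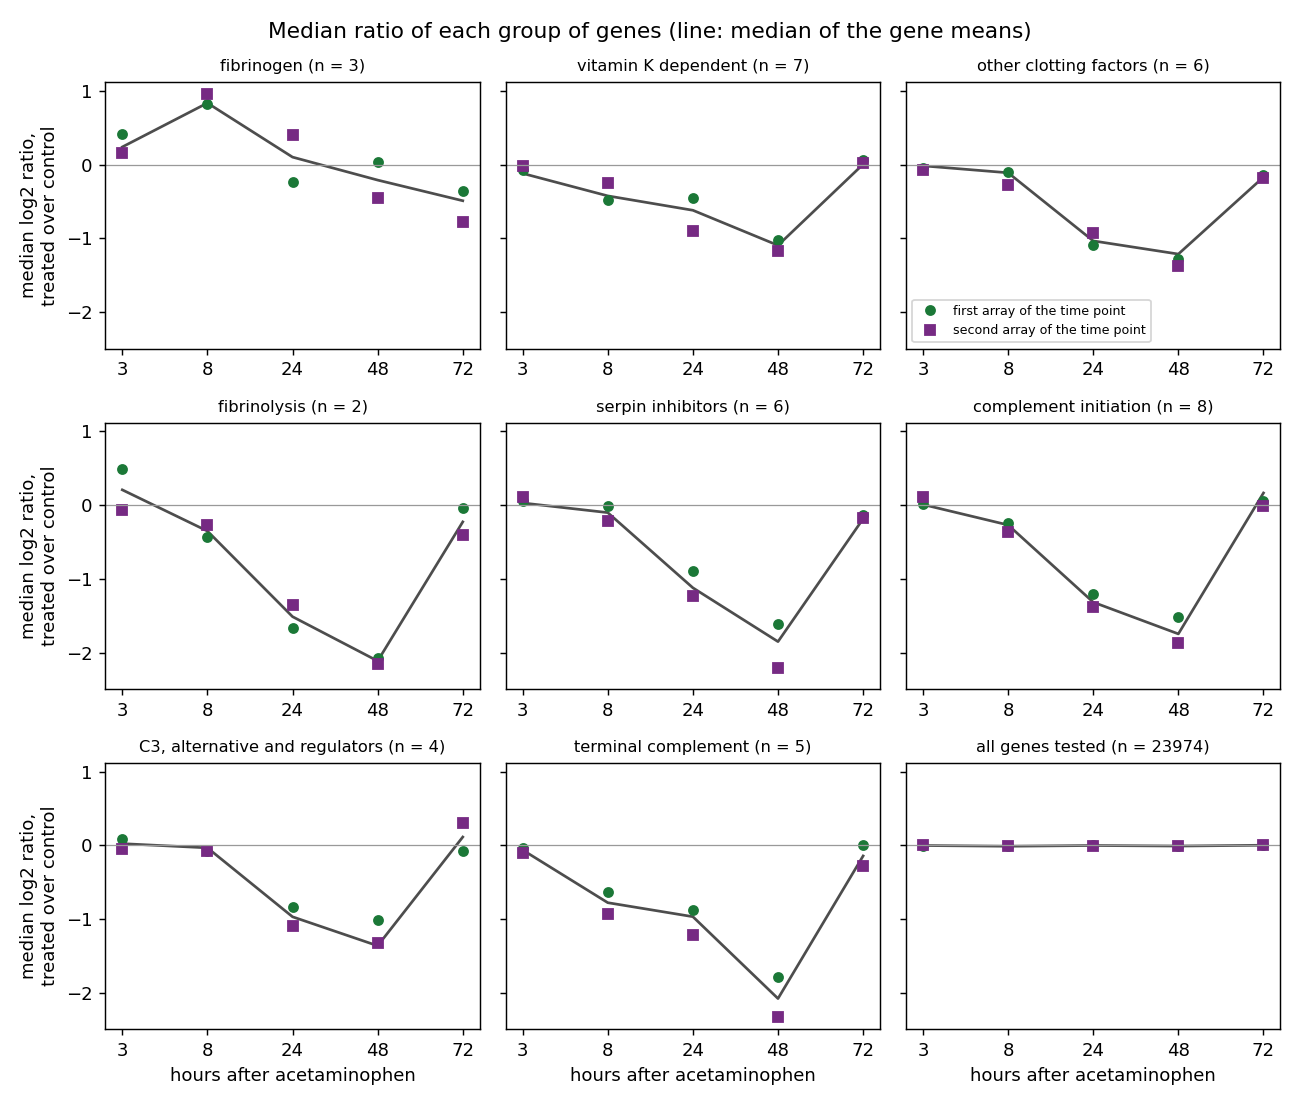
Median log2 ratio of treated over control liver for each group of genes and for all genes tested against hours after acetaminophen, with 1 point for each array and a line for the median of the gene means. The fibrinogen median is 0.84 at 8 h, every other group lies below -0.6 at 24 h and below -1 at 48 h, and the median of all genes stays near 0.

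Of the 8 complement initiation genes, 0 passed at 3 h, 3 fell at 8 h, and 7 fell at both 24 and 48 h, with medians of -1.32 and -1.75 at those later times. C2, the protease of the classical and lectin convertase, had -0.90 and -0.58 at 8 h, -1.47 and -1.14 at 24 h and -2.33 and -2.45 at 48 h. At 72 h its arrays gave 0.34 and 0.45. The fitted values were -0.74 ± 0.11 at 8 h (adjusted p = 0.0059), -1.31 ± 0.11 at 24 h (adjusted p = 0.000395) and -2.39 ± 0.11 at 48 h (adjusted p = 3.4e-05). C1s, a protease of the first complex, fell most of the group at 24 h, with -1.16 and -1.94 (-1.55 ± 0.23, adjusted p = 0.004), and its neighbour and partner C1ra fell to -1.43 at 24 h and to -1.83 at 48 h.

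The lectin arm fell too. Masp1 and Masp2, its proteases, fell to -0.39 and to -0.42 at 8 h, to -1.22 and to -1.20 at 24 h, and to -1.33 and to -1.71 at 48 h. The dimmer probe of Masp1 stood at -0.39 at 24 h and -0.28 at 48 h and did not pass. At 8 h the 2 dimmer probes of Masp2 stood at 0.0006, which did not pass, and at -0.48, which did. Mbl1 and Mbl2, the mannose-binding lectins, fell to -1.49 and to -1.33 at 24 h and to -1.08 and to -2.36 at 48 h. C4b was the member of the group that did not pass, at -0.43 at 24 h (adjusted p = 0.49) and -0.63 at 48 h (adjusted p = 0.13). Its probe's accession list also names a near-identical copy of C4b, so its signal may hold both.

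C3, the centre of complement and one of the brightest probes, stood at -0.03 and -0.69 at 24 h and did not pass (-0.36 ± 0.24, adjusted p = 0.49). At 48 h its arrays gave -1.02 and -2.06 (-1.54 ± 0.24, adjusted p = 0.0022). Cfb, the alternative pathway protease, fell to -0.65 at 24 h and to -1.18 at 48 h, and Cfi, which cuts C3b, to -1.29 and to -1.02. C4bp, a regulator of the classical pathway, had -0.81 and -0.49 at 8 h (-0.65 ± 0.16, adjusted p = 0.036) and -1.84 and -1.56 at 24 h (-1.70 ± 0.16, adjusted p = 0.00057). At 48 h its arrays gave -1.86 and -1.22 (-1.54 ± 0.16, adjusted p = 0.000432). Its fall was the largest of the group at 8 and 24 h, and at 48 h it equalled that of C3 to 2 decimals. All 4 genes of the group fell at 48 h.

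Terminal complement held the member that was called at the most times. C8b, a chain of the membrane-attack protein C8, had -0.46 and -0.70 at 3 h, -1.52 and -1.17 at 8 h, -1.80 and -2.37 at 24 h, -2.38 and -2.37 at 48 h and -0.06 and -0.16 at 72 h. The fitted values were -0.58 ± 0.14 (adjusted p = 0.048), -1.34 ± 0.14 (adjusted p = 0.0015), -2.08 ± 0.14 (adjusted p = 0.000155) and -2.37 ± 0.14 (adjusted p = 6.3e-05) at 3, 8, 24 and 48 h. It was called at each of these times, though its 3 h call ended without either 3 h array. C8a, its neighbour on chromosome 4, fell to -1.18 at 8 h and to -1.49 at 24 h, and at 48 h its arrays gave -2.15 and -3.53 (-2.84 ± 0.25, adjusted p = 0.00024). A dimmer C8a probe stood at -0.17 at 8 h and -0.16 at 24 h, neither of which passed, and at -0.62 at 48 h, which did. C8g, another chain of C8, fell to -0.93 at 24 h and to -1.87 at 48 h. A dimmer C8g probe, fitted among probes, rose by 0.44 at 8 h (adjusted p = 0.0235) and fell to -0.89 at 24 h and to -0.60 at 48 h. C9, which forms the pore, fell to -0.97 at 24 h and to -2.08 at 48 h, the second from 1 array. C6 was not called at any time and lay between -0.16 and 0.17. Its mean log2 intensity of 7.6 was the lowest of the members' probes.

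Several members lie side by side in the genome, by the order of genes in the RefSeq table. In the chromosome 8 run of F7, F10 and Proz, F7 and Proz fell at 24 and 48 h. F10 was not called by its brightest probe, but its other probe fell to -1.84 and to -2.38 at these times. Serpinf1 and Serpinf2 on chromosome 11 stood at -0.86 and -0.58 at 24 h and at -1.44 and -1.75 at 48 h. C2 and Cfb, neighbours on chromosome 17, stood at -2.39 and -1.18 at 48 h. Neighbours thus had like values in some pairs, such as C1ra and C1s, and unlike values in others, such as Klkb1 and F11.

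Ratios of neighbouring times were also compared. Relative to 3 h, 0 members were higher and 0 lower at 8 h, against 0.53% and 0.288% of all genes. In that comparison 11 members, and 4015 of the 23974 genes tested, had an unadjusted p below 0.05. Relative to 8 h, 0 were higher and 16 lower at 24 h, against 2.47% and 3.82% of all genes. Relative to 24 h, 1 was higher and 5 were lower at 48 h, against 7.82% and 2.66% of all genes. The 5 were F5, Plg, C2, Masp2 and Mbl2. Relative to 48 h, 32 were higher and 0 lower at 72 h, against 6.59% and 10.1% of all genes. With median centring 0 members were called in each of these comparisons. With the slide as a replicate block, 0 were called between 8 and 24 h, 0 between 24 and 48 h and 31 between 48 and 72 h. Of all genes, median centring called 0, 2, 528 and 148 in time order, and the slide block called 0, 0, 0 and 3226. With loess and no block, 196, 1509, 2512 and 3989 of all genes were called. The calls of such differences given above for Fgb, Pros1 and Plg were thus lost with median centring and with the slide block. The scanner software's ratio gave 2 higher and 0 lower at 48 h relative to 24 h, with 1283 of all genes called. The moderated F test over the 5 times called 34 of the 41 members and 23.3% of all genes. The 7 members it did not call were Fga, Fgg, F2, F10, F11, C4b and C6.

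At 72 h no gene on the array was called by limma (0 members also under every alternative), and 767 genes and 10 members had an unadjusted p below 0.05. The smallest adjusted p of a member there was 0.49, for Masp2, at -0.40 and -0.55. Members ranged from -0.79 for Fgg to 0.55 for Kng1. Within genes, the difference of 72 h over 48 h was 2.79 for C2 (adjusted p = 0.000245), 1.82 for F5 (adjusted p = 0.00065) and 2.21 for Plg (adjusted p = 0.00076). A p that misses the threshold does not show that treated and control livers were alike at 72 h.

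In the control livers alone (Cy3 channel, scaled between arrays), 1 of the 41 members differed over the times, against 3.72% of all genes. This was C8a, with scaled log2 intensities of 10.37 and 10.37 at 3 h, 10.94 and 11.12 at 8 h, 11.63 and 11.47 at 24 h, 11.42 and 11.52 at 48 h, and 11.25 and 11.21 at 72 h (F test, adjusted p = 0.0136). The control livers of 3 h were the lowest. For F11, the control means ran from 9.95 at 3 h to 11.65 at 24 h (adjusted p = 0.0653). The fall of Klkb1 lay in the treated channel, at 9.47 at 24 h in treated livers, against 11.99 in control livers.

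**Figure D5:**
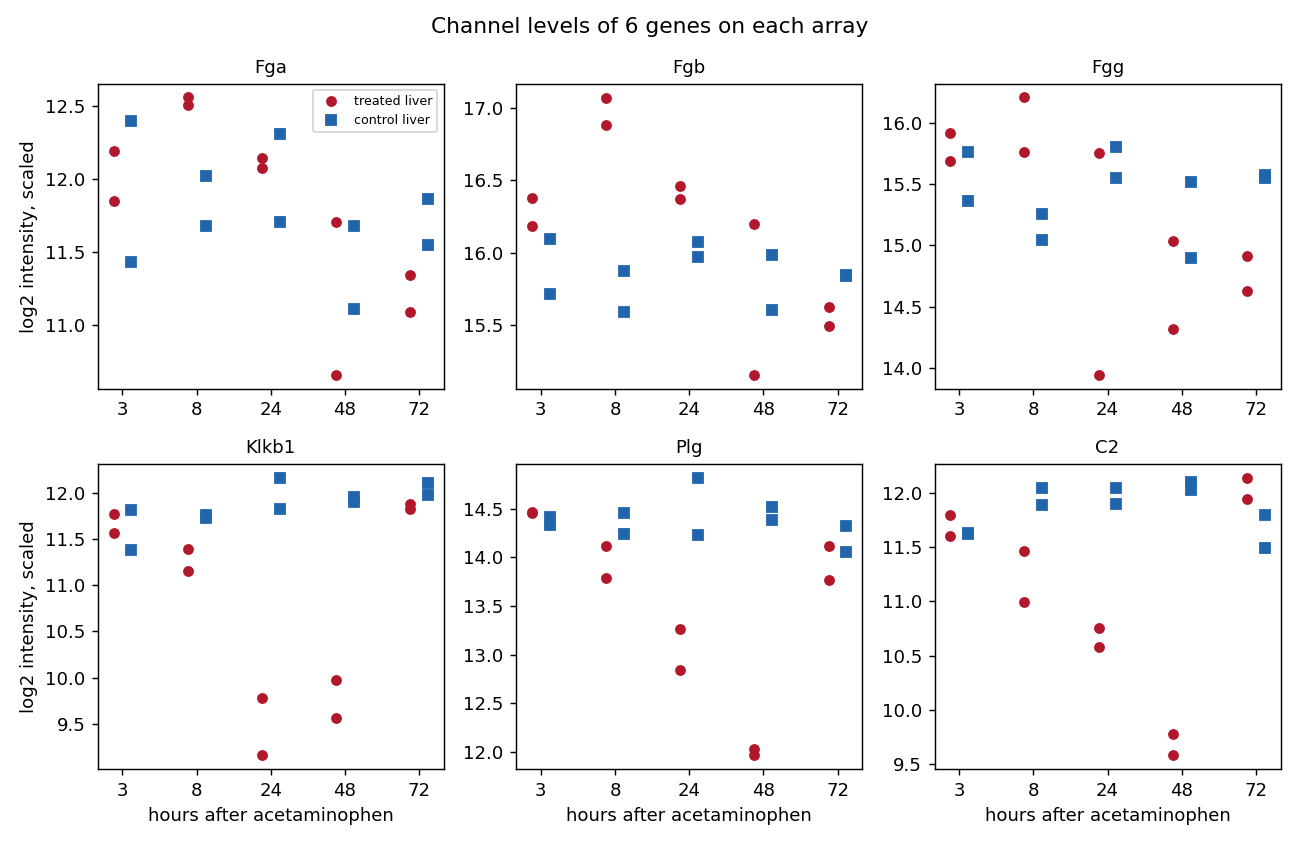
Scaled log2 intensity of 6 genes in treated liver (circles, left) and control liver (squares, right) on each array against hours after acetaminophen, with a separate vertical scale for each gene. For Klkb1, Plg and C2 the treated livers at 24 and 48 h lie below every control liver, whereas for Fgb the treated livers lie above the control livers at 3, 8 and 24 h.

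Other genes of the same systems moved both ways. Of 29 further clotting and fibrinolysis genes measured, 1 rose and 1 fell at 3 h, 3 rose and 4 fell at 8 h, 3 rose and 8 fell at 24 h, and 11 rose and 8 fell at 48 h. Thbd, the thrombin receptor thrombomodulin, rose by 1.56 at 8 h and by 1.65 at 48 h. Anxa2 and S100a10, which together bind plasminogen at cell surfaces, rose by 2.81 and 1.97 at 48 h. Vkorc1, which recycles vitamin K, fell to -1.60 at both 24 and 48 h, and Ggcx, the carboxylase of the vitamin K dependent proteins, to -0.37 and to -0.32. Hrg, histidine-rich glycoprotein, fell to -1.36 and to -2.28, and Ahsg to -2.41 at 48 h.

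Of 14 further serpins, 1 rose and 1 fell at 8 h, 1 rose and 3 fell at 24 h, and 2 rose and 6 fell at 48 h. Serpina3n, an acute phase serpin of the mouse, rose by 1.32 at 8 h, and Serpina3m by 1.26 at 48 h. Serpina6, the carrier of corticosteroids, fell to -1.40 at 8 h, to -2.52 at 24 h and to -3.66 at 48 h. Serpina1a and Serpina1e, near-identical copies of the elastase inhibitor gene whose signals cannot be parted with certainty, fell to -1.58 and to -1.73 at 48 h. Of 23 further complement genes, 0 rose and 8 fell at 24 h, and 5 rose and 8 fell at 48 h. Hc, the mouse C5 gene, fell to -0.96 at 24 h and to -1.61 at 48 h. In contrast C1qa, C1qb and C1qc, the macrophage-made chains of C1q, rose by 0.81, 0.60 and 0.82 at 48 h. Of the Kupffer cell genes given above, Marco alone was called at that time.

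The 12 regulators of these genes changed in different directions. Cebpd and Cebpb, C/EBP factors of the acute phase, rose by 1.55 and 1.48 at 3 h and by 2.14 and 1.21 at 8 h, and Cebpd also rose by 0.92 at 24 h and by 1.15 at 48 h. Socs3, a feedback gene of STAT3, fell to -0.62 at 3 h, rose by 0.67 at 8 h and rose by 0.86 at 24 h. Stat3 rose by 0.72 at 24 h. The receptor genes Il6ra and Il6st stood at -0.91 and 0.86 at 48 h, both called. Cebpa fell to -1.31 at 24 h and to -0.75 at 48 h. Hnf4a rose by 0.51 at 8 h and fell to -0.50 and -0.54 at 24 and 48 h. Foxa2 and Onecut1 fell to -2.06 and to -0.94 at 3 h and to -1.53 and to -0.89 at 8 h, and Foxa2 also to -0.93 at 48 h. Nr1h4, the bile acid receptor known to act on fibrinogen genes in humans, fell at 3, 8, 24 and 48 h, with values of -0.72, -0.63, -1.38 and -0.99.

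The counts at the early times rested on single arrays. In the fits named below for 3, 8 and 24 h, calls over all genes moved the same way as those of members. Without 8 h replicate 2 the count of members called at 8 h was 1, and without 8 h replicate 3 it was 5. At 3 h it was 0 without either 3 h array or either 72 h array, 1 without either 8 h array and 4 without either 48 h array. The 24 h count was 19 without 24 h replicate 3, and the 48 h count lay between 29 and 34 over all left-out arrays.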

How the data were processed

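Per the file headers, images of the 10 arrays were quantified by Agilent's Feature Extraction software (10.7.3.1). The deposited files hold the intensity and the background of both channels and a log10 ratio. The authors' deposited value table is a score on an unstated scale, equal to 1.443 times that log10 ratio on every array and with a median of 0 (any further centring is unknown), and was rescaled to log2 as an alternative. From the intensities, log2 ratios were computed in limma 3.58.1 (R 4.3.3) with normexp background correction (offset 50) and loess within each array. The 1377 control spots had weight 0 and outlier spots were left out. Probes well above background in 1 channel on both arrays of a time were kept (29579 of 39429), and the brightest probe stood for a gene. lmFit and eBayes gave a coefficient for each time (5 residual degrees of freedom), 4 differences between neighbouring times and an F test, with Benjamini-Hochberg adjustment over 23974 genes. Control livers were read in Cy3 after Aquantile scaling. The fit was tested on simulated data.

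Arrays were grouped by the time in their titles. The members and gene lists were chosen with earlier results of these data known. All members are accounted for, and array values are given for the fibrinogen genes and for the called member with the largest change in each role at each time. Outside lists name members among the largest called changes, and some results are not reported here. Coordinates of probes follow the mm9 build named in the files. Probes were not placed on exons here. Precision is limited by 2 arrays at each time. Alternatives were background, normalization, filter, probe choice, trend, slide or scan day as a block, and leaving out each array.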

Additional observations from a re-analysis of the deposited data

Results flagged for a closer look

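The differences between neighbouring times were called for 16 members between 8 and 24 h, for 6 between 24 and 48 h and for 32 between 48 and 72 h. The smallest p-values between 8 and 24 h were those of Klkb1 at -2.05, C1ra at -1.75 and Serping1 at -1.09. Between 24 and 48 h they were those of C2 at -1.09, Plg at -0.99 and F5 at -0.71. Between 48 and 72 h they were those of C2 at 2.79, F5 at 1.82 and Plg at 2.21. Each is a test of the difference itself, later minus earlier, from which a dye effect shared by all arrays cancels. With median centring 0 members were called in all 3 of these differences, against 2, 528 and 148 of all genes. With the slide as a replicate block the counts were 0 between 8 and 24 h, 0 between 24 and 48 h and 31 between 48 and 72 h. Of all genes, 0, 0 and 3226 were called with that block. With 2 arrays in a group, no single array can be called an outlier.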

How the results depend on the processing

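No called value of a member changed sign under any alternative. Of the 72 called values, 0 of 2 (3 h), 1 of 8 (8 h, C8b), 17 of 29 (24 h) and 30 of 33 (48 h) passed under every alternative other than median centring. With median centring included these were 0, 1, 13 and 9. The counts of called members were 2, 8, 29, 33 and 0 in time order. For the differences between neighbouring times they were 0, 16, 6 and 32, with 34 for any difference between times and 1 in control livers. Median centring gave 13, 5, 17 and 9 called members at 3, 8, 24 and 48 h, and 2 for any difference between times. Of all genes, 5994, 2533, 757 and 2922 were then called at these times, and 1279 for any difference. Median centring gave 0 members between 8 and 24 h, 0 between 24 and 48 h and 0 between 48 and 72 h. Of all genes, 2, 528 and 148 were then called. With no background correction, 1 was called at 3 h and 10 between 24 and 48 h, against 1321 and 3421 of all genes. An offset of 0 gave 0 at 3 h and 4 at 8 h, against 2112 and 2120 of all genes. The scanner software's ratio gave 0 at 3 h, 3 at 8 h and 2 between 24 and 48 h. Of all genes, 1065, 2303 and 1283 were then called. The authors' value table, a rescaled form of that ratio, gave the same counts and is not a separate check. Without a filter on dim probes 1 was called at 3 h, against 1669 of all genes. A strict filter, which left 40 members, gave 11 between 24 and 48 h and 3 in control livers. Of all genes, 2551 and 1297 were then called. The mean of all probes gave 0 in control livers, and an intensity trend gave 0 at 3 h. Of all genes, 815 and 1867 were called in these fits. The causes of these shifts were not tested.

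The deviations of arrays with the same replicate number correlated between times at -0.122 to 0.295, not all above 0.1, and the labels tie the number to no shared animal or day. The numbers were therefore not taken to pair the samples, although the scan day in the files runs with the number: every replicate 3 array was scanned on day 2 and the others on day 1. With the slide as a replicate block the counts were 1 at 3 h, 4 at 8 h, 0 between 8 and 24 h, 0 between 24 and 48 h, 17 for any difference between times and 0 in control livers. Of all genes, 320, 1420, 0, 0, 1133 and 55 were then called, in the same order. With the scan day as a replicate block, chosen after seeing the data, 28 were called at 24 h and 34 at 48 h. In control livers 2 were called. Of all genes, 2701, 7789 and 1703 were then called, in the same order. Leaving out 1 array at a time gave 0 to 4, 1 to 10, 19 to 30, 29 to 34 and 0 to 0 called members in time order. Between neighbouring times it gave 0 to 2, 4 to 18, 3 to 12 and 21 to 32, for any difference 26 to 36, and in control livers 0 to 2. The count between 8 and 24 h was 4 without 8 h replicate 2 and 9 without 24 h replicate 3. The count between 24 and 48 h was 12 without 48 h replicate 1 and 3 without 48 h replicate 3, and that between 48 and 72 h was 21 without 48 h replicate 3. The count between 3 and 8 h was 2 without either 48 h array, and that in control livers was 0 without either 3 h array and 2 without 8 h replicate 2. Where a left-out array is named, all-gene calls moved the same way as member counts, except in control livers without 8 h replicate 2. An array pair left with 1 array was assumed to vary like the others. The other F10 probe, an alternative chosen after seeing the data, gave 30 at 24 h and 34 at 48 h. Of all genes, 2618 and 7543 were then called. The members' probes were well above background on every array, except for the C9 spot left out on 1 of the 48 h arrays.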
